A study of Homo sapiens with 12 samples.

Results

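The mRNAs of 10 regulators of the G1 phase of the cell cycle were followed in the human neuroblastoma cell line SK-N-SH, across an inhibitor comparison and a knockdown comparison. The genes were chosen by name: the D-type cyclins CCND1, CCND2 and CCND3, their kinases CDK4 and CDK6, the kinase inhibitors CDKN2C, CDKN2D, CDKN1B and CDKN1C, and the retinoblastoma gene RB1. They are 10 of 18739 genes in the deposited tables. 9 of the 10 passed the filter on low counts, together with 15051 genes in all, and CCND2 did not. RNA-seq was done on 12 libraries in 4 groups of 3, which the series design calls biological triplicates. 1 group was wild-type cells given DMSO and 1 was wild-type cells given 50 nM chaetocin, a fungal compound used as an inhibitor of the histone H3 lysine 9 methyltransferase SUV39H1. The other 2 were wild-type cells transfected with the control siNC and cells transfected with siSUV39H1, which the labels call a SUV39H1 knockdown. The series design names these constructs shNC and shSUV39H1, and the names of the sample labels are kept here. No treatment time and no number of siRNA sequences is given in the sources used here. Each group is 1 cell line with 3 libraries. The p-values of the main fit measure the spread between libraries within groups, with 1 estimate per gene shared by the 4 groups.

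D-type cyclins bind and activate CDK4 and CDK6, and these kinases phosphorylate the RB1 protein, which otherwise holds E2F transcription factors in check. INK4 proteins, among them those of CDKN2C (p18) and CDKN2D (p19), bind CDK4 and CDK6 and keep cyclin D off. CIP/KIP proteins, among them those of CDKN1B (p27) and CDKN1C (p57), bind whole cyclin-kinase complexes and above all restrain CDK2. In the sympathetic lineage that gives rise to neuroblastoma, cyclin D1 is abundant, and exit from the cell cycle goes with differentiation.

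The stretches upstream of CDK4 and CDKN2C are shown because these were the kinase gene and the inhibitor gene that fell most in chaetocin among the kinases and inhibitors described below. Each is 250 bases before an annotated start site, 5′ to 3′ on the gene's strand, from RefSeq on GRCh38.p14. Capitals mark the E-box CACGTG, a palindrome that reads the same on both strands and is recognised by MYC-family and other basic helix-loop-helix factors.
CDK4 (minus strand, chr12:57752311-57752560): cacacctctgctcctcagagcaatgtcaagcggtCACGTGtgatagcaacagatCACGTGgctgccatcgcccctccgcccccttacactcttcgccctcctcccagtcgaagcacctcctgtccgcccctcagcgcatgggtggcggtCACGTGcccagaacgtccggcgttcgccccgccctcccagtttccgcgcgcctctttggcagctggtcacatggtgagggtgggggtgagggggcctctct
CDKN2C, upstream start (plus strand, chr1:50960495-50960744): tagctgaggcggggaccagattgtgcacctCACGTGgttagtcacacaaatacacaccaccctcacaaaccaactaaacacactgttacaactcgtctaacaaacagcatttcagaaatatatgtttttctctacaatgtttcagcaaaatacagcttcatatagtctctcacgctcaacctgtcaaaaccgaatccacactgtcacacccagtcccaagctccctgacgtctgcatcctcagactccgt
CDKN2C, downstream start (plus strand, chr1:50969995-50970244): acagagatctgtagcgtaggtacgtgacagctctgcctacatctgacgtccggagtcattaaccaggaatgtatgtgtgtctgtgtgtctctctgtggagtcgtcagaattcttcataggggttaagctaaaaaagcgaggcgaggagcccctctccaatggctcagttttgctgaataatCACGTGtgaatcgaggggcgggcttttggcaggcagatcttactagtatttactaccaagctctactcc
The CDK4 stretch holds 3 E-boxes, which begin 216, 196 and 101 bases before the start site. The CDKN2C stretches hold 1 E-box each, at 220 and at 69 bases before their start sites, and the window of another CDKN2C start, chr1:50968456-50968755, holds none. Over windows of 300 bases (250 before to 50 after a start site), at least 1 E-box was found in 7.26% of 35116 windows of all genes, and at least 3 in 33 windows, or 0.094%. 7 of the 10 genes had windows, 12 in all, and 4 of these held an E-box: that of CDK4, 2 of CDKN2C and 1 of CDK6. The E2F letters TTTCGCGC or TTTGGCGC stood in 1.15% of all windows, the AP-1 letters TGAGTCA in 4.95% and the CRE letters TGACGTCA in 1.85%. None of these 3 motifs, searched on both strands, was in the 12 windows. The GC box GGGCGG stood in 8 of the 12 and in 45.0% of all windows, and CCAAT in 5 and in 34.6%. CCND1, CCND2 and CDKN1C had no window. That of RB1, chr13:48476200-48476499, lies within the gene (48303751 to 48481890), so the stretch before the gene was not searched. The same holds for CCND3, whose windows, the most upstream at chr6:42048639-42048938, all lie within the gene (41934933 to 42050035). The matches describe the letters alone.

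Library totals ran from 18004632 to 19976995 expected counts. The targeted gene, SUV39H1, was at 17.5 ± 1.05 CPM in siNC (SD, n = 3) and at 5.76 ± 0.3004 CPM in siSUV39H1, a log2 difference of -1.60 ± 0.11 (SE; adjusted p = 5e-08). It was also lower in chaetocin than in DMSO, 7.65 ± 0.195 against 21.5 ± 2.70 CPM, a log2 difference of -1.49 ± 0.11 (adjusted p = 4.12e-09). CPM here are scaled by TMM, and a gene is called when its adjusted p, taken over all 15051 genes, is under 0.05. The summed TPM of 7 markers of noradrenergic neuroblasts (DBH, TH and others) ran from 839 to 1027 in DMSO, 67.0 to 68.8 in chaetocin, 491 to 497 in siNC and 615 to 688 in siSUV39H1, and TH was at 0 counts in DMSO and siNC. Summed TPM of 8 mesenchymal neuroblastoma markers ran from 13626 to 14089, 6512 to 7753, 12108 to 13019 and 12965 to 13624 in the same order of groups. Thus the line expressed both marker sets. Their sums are over different genes, and their sizes do not tell which state prevails. 6 of 6 tested noradrenergic and 7 of 8 mesenchymal markers were called lower in chaetocin, and the same 6 noradrenergic markers were called lower in siNC than in DMSO. Of all genes tested, 41.1% were called higher and 38.4% lower in chaetocin. The share called lower was 18.2% in siNC against DMSO and 18.6% in siSUV39H1 against siNC. 5 of 6 epithelial markers, 4 of 4 tested blood cell markers and 3 of 3 tested endothelial markers were called higher in chaetocin. Their summed TPM in DMSO against chaetocin were 127 to 139 against 178 to 184, 2.1 to 2.88 against 49.3 to 57.2, and 1.34 to 1.66 against 10.5 to 11.4. The T cell marker CD3E was at 0 in each group other than chaetocin, where it had 1 count. 3 of 4 tested Schwann cell and glial markers were called lower in siSUV39H1 than in siNC, with sums of 31.2 to 33.6 against 52.1 to 57.4 TPM, and SOX10 was at 0 in DMSO and siSUV39H1. The leading principal component of all libraries carried 80.9% of their variance. The part of these shifts in the values below was not tested, and in bulk RNA fewer cells of a type and less RNA per cell cannot be told apart.

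Per length, CDK4 and CCND1 were the most abundant of the 10 mRNAs in each of the 4 groups. In DMSO the deposited TPM was 259.9 ± 7.69 for CDK4, 245 ± 36.1 for CCND1 and 76.5 ± 3.20 for CDKN2C (SD, n = 3). CCND3 followed at 44.2 TPM, CDKN2D at 21.5 and CDKN1B at 19.7, then RB1 at 9.03, CDK6 at 8.73, CDKN1C at 6.89 and CCND2 at 0.01. The levels of RB1 and CDK6 in DMSO overlapped between libraries (8.07 to 9.52 and 7.76 to 9.29 TPM), and so did those of CDKN2D and CDKN1B (19.97 to 23.3 and 17.9 to 21.5). In chaetocin CCND1 led at 409 TPM, and CDKN2C, at 17.1 TPM, stood below CCND3 at 53.5 TPM.

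The composition of each family also differed between the groups on this scale. The 3 D-type cyclins summed to 289 ± 38.7 TPM in DMSO, 463 ± 7.76 in chaetocin, 511 ± 60.8 in siNC and 329 ± 9.04 in siSUV39H1. CCND1 made up 84.6%, 88.4%, 91.0% and 86.4% of these sums. CDK4 and CDK6 summed to 269 ± 6.86, 150.05 ± 7.94, 300.5 ± 2.87 and 288 ± 6.27 TPM, and CDK4 made up between 93.8% and 97.6% of the sum in each library. The 4 inhibitors summed to 125 ± 4.82, 46.2 ± 1.31, 94.98 ± 3.97 and 119 ± 5.67 TPM. CDKN2C held 78.1% of the summed CDKN2C and CDKN2D TPM in DMSO and 57.2% in chaetocin. Chaetocin libraries thus had higher cyclin D sums than DMSO libraries, and lower sums of CDK4 and CDK6 and of these 4 inhibitors, with no overlap. The sums leave out inhibitor genes outside the 10. Those are given here in CPM, which are not scaled for length and cannot be set against the TPM sums. CDKN1A was at a mean of 1243 CPM in DMSO and 2084 in chaetocin, above each of the 4 in CPM. CDKN2B was at 5.77 and 10.4 CPM, and CDKN2A went the other way, at 83.9 and 48.5 CPM.

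**Figure D1:**
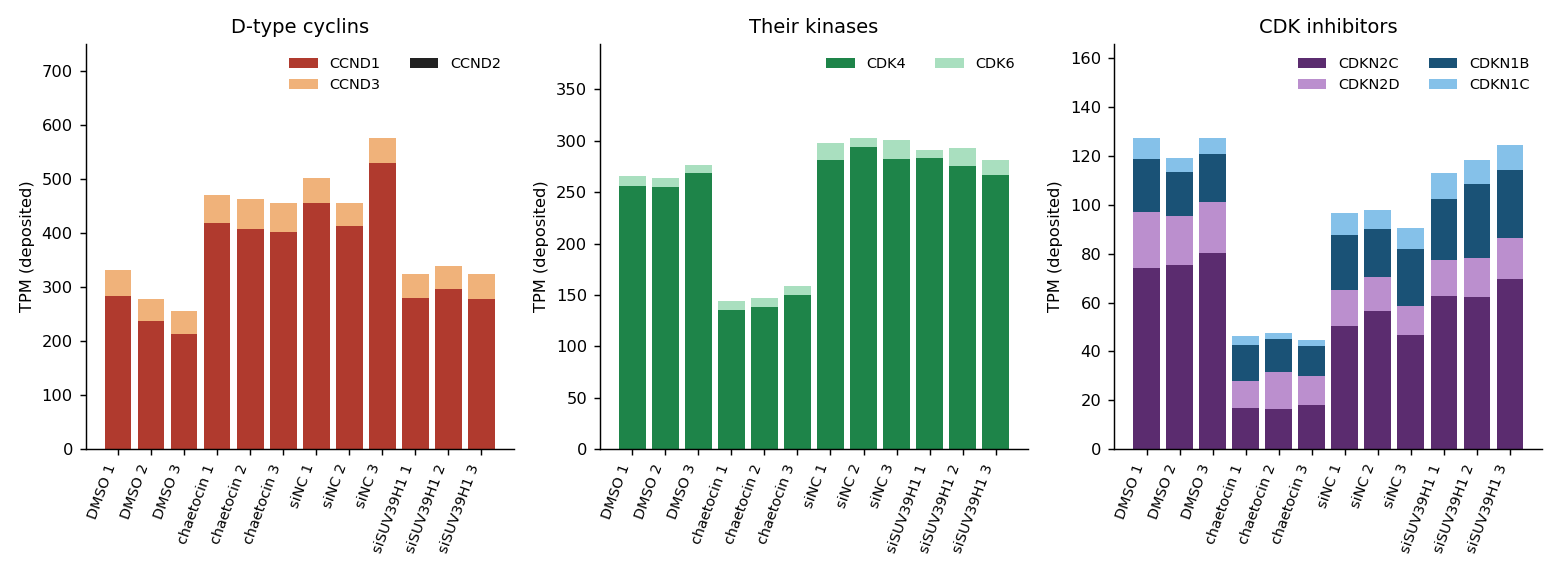
Deposited TPM (linear axis from 0) of the D-type cyclins, of CDK4 and CDK6, and of the 4 inhibitors, stacked by gene, with 1 bar per library. The inhibitor stacks of the chaetocin libraries are the lowest of the 12, at a mean of 46.2 TPM against 125 TPM in DMSO, and CCND2 is too low to be seen.

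CCND1 (cyclin D1; chromosome 11, 69641156 to 69654474) rose in chaetocin and fell in siSUV39H1. Its levels were 655, 564 and 529 CPM in the DMSO libraries and 884, 873 and 889 CPM in chaetocin. The chaetocin libraries were all above the DMSO libraries and nearly equal to each other, with a log2 difference of 0.60 ± 0.08 (SE; 1.51-fold; adjusted p = 4.28e-06). In siNC the levels were 1047, 1012 and 1140.5 CPM, and in siSUV39H1 632, 601 and 579 CPM. Here the groups were apart in the other direction, with a log2 difference of -0.82 ± 0.08 (adjusted p = 1.48e-06). The effect of chaetocin minus the effect of siSUV39H1 was 1.42 ± 0.11 on the log2 scale (adjusted p = 1.87e-08). The siNC control was itself above DMSO, by 0.87 ± 0.08 (adjusted p = 1.04e-06). In order of level, DMSO and siSUV39H1 overlapped, chaetocin stood above both, and siNC stood above chaetocin.

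CCND3 (cyclin D3; chromosome 6, 41934933 to 42050035) was called in none of the comparisons with TMM scaling and the filter used. It was at 51.0, 45.5 and 49.9 CPM in DMSO and 50.4, 54.0 and 53.5 CPM in chaetocin, a log2 difference of 0.11 with a 95% interval of -0.05 to 0.27 (adjusted p = 0.198). In siNC it was at 49.5, 50.0 and 45.5 CPM and in siSUV39H1 at 47.4, 40.5 and 44.1 CPM, a difference of -0.14 with an interval of -0.30 to 0.03 (adjusted p = 0.189). Each group overlapped its neighbour in the order of levels. The chaetocin difference was called when library totals alone, or upper-quartile scaling, set the scale, at 0.26 (adjusted p = 0.0019) and 0.19 (adjusted p = 0.0276). It was also called by limma on log2(TPM + 1), at 0.27 (adjusted p = 0.00063), and on log2(TPM + 0.1), at 0.28 (adjusted p = 0.000697), and by edgeR with a length trend removed, at 0.22 (adjusted p = 0.00512). The median of all genes moved as well, from 0.04 to 0.19 with library totals and to 0.12 with upper-quartile scaling. It was 0.16 and 0.19 in the limma fits, and 0.04 with the length trend removed.

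CCND2 (cyclin D2; chromosome 12, 4273762 to 4305353) was near the limit of detection and did not pass the filter on low counts. It had 0, 0 and 2 counts in DMSO, 9, 5 and 3 in chaetocin, 3, 2 and 0 in siNC, and 1, 1 and 0 in siSUV39H1. Summed over libraries and scaled for depth, chaetocin stood at 8.39 times DMSO, with a 95% interval of 1.99 to 74.9 for counting error only. siSUV39H1 stood at 0.392 times siNC, with an interval of 0.0373 to 2.39, so no difference was detectable at this depth. In a fit with no filter on low counts, edgeR called CCND2 higher in chaetocin, by 2.82 ± 0.98 on the log2 scale (adjusted p = 0.0171), and called the difference of effects (4.02 ± 1.63, adjusted p = 0.0452). These values rest on 2 counts in DMSO and 17 in chaetocin.

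**Figure D2:**
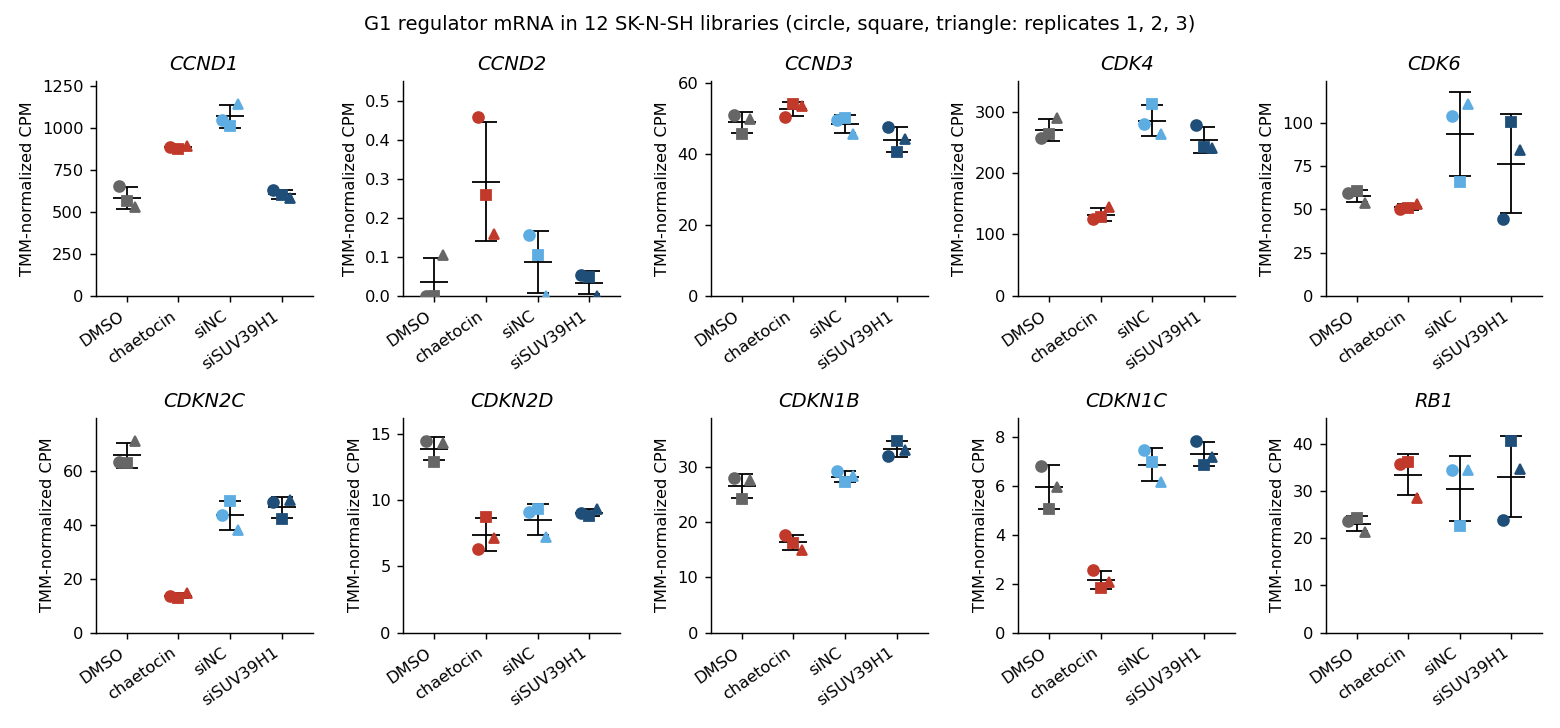
TMM-normalized CPM of the 10 genes (linear axes from 0) in the 4 groups; each symbol is 1 library, and bars give the mean and SD of 3. CCND1 is high in chaetocin and siNC, CDKN2C is lowest in chaetocin, and CDK6 and RB1 each have 1 low library in siNC (replicate 2) and 1 in siSUV39H1 (replicate 1).

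CDK4 (chromosome 12, 57747727 to 57752310), the main catalytic partner of cyclin D in these cells by mRNA level, fell in chaetocin. It was at 256, 263 and 289.9 CPM in DMSO and at 124, 129 and 144 CPM in chaetocin. The groups were far apart, with a log2 difference of -1.03 ± 0.08 (2.04-fold lower; adjusted p = 1.74e-08). The siNC libraries were at 281, 312 and 263 CPM and those of siSUV39H1 at 279, 243 and 241 CPM. These groups overlapped, and the difference of -0.17 had an interval of -0.34 to 0.01 (adjusted p = 0.135). Without siSUV39H1 replicate 1 it was -0.24 and was called (adjusted p = 0.0384). The chaetocin effect was lower than the siSUV39H1 effect by 0.86 ± 0.12 (adjusted p = 9.78e-06 for the difference of effects).

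CDK6 (chromosome 7, 92604921 to 92836573), the other kinase of D-type cyclins, differed between libraries of the same transfection more than between the groups compared. It was at 59.5, 60.4 and 53.5 CPM in DMSO and at 50.1, 51.0 and 53.1 CPM in chaetocin, a log2 difference of -0.17 with an interval of -0.65 to 0.31 (adjusted p = 0.496). These libraries did not overlap, and a fit to these 6 libraries alone called the same difference, at -0.18 (adjusted p = 0.0262). The first fit took its spread from all 12 libraries, those of siNC and siSUV39H1 included. CDK6 in siNC was at 103.8, 65.7 and 111 CPM and in siSUV39H1 at 44.6, 100.6 and 84.4 CPM. These groups overlapped widely, with a difference of -0.29 and an interval of -0.75 to 0.18 (adjusted p = 0.341). The siNC libraries were above DMSO by 0.69 ± 0.22 (adjusted p = 0.0236).

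CDKN2C (p18; chromosome 1, 50960745 to 50974634), the more abundant of the 2 INK4 genes among the 10, had the largest change in chaetocin of the 9 genes tested. It was at 63.3, 62.9 and 71.1 CPM in DMSO and at 13.6, 12.9 and 14.6 CPM in chaetocin. Each chaetocin library was thus well under each DMSO library, with a log2 difference of -2.26 ± 0.10 (4.796-fold lower; adjusted p = 1.55e-11). The knockdown pair was closer: CDKN2C was at 43.7, 48.6 and 38.0 CPM in siNC and 48.3, 41.9 and 49.1 CPM in siSUV39H1, a difference of 0.10 with an interval of -0.11 to 0.30 (adjusted p = 0.477). These counts overlapped, whereas the deposited TPM did not, at 50.4, 56.6 and 46.7 in siNC against 62.7, 62.4 and 69.8 in siSUV39H1. On log2(TPM + 1) limma called this difference, at 0.34 (adjusted p = 0.00297). siNC was below DMSO by 0.60 on the log2 scale of CPM (difference -0.60 ± 0.10; adjusted p = 0.000182).

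CDKN2D (p19; chromosome 19, 10566460 to 10568979), the other INK4 gene among the 10, fell in chaetocin as well. It was at 14.5, 12.9 and 14.3 CPM in DMSO and at 6.32, 8.76 and 7.12 CPM in chaetocin, with the groups apart and a log2 difference of -0.91 ± 0.13 (adjusted p = 1.15e-05). In siNC it was at 9.12, 9.32 and 7.20 CPM and in siSUV39H1 at 9.04, 8.82 and 9.34 CPM, a difference of 0.09 with an interval of -0.20 to 0.37 (adjusted p = 0.665). Both transfected groups overlapped chaetocin or each other and lay under DMSO, siNC by -0.70 ± 0.13 (adjusted p = 0.00063).

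CDKN1B (p27; chromosome 12, 12717368 to 12722369), a CIP/KIP inhibitor, was lower in chaetocin. It was at 27.9, 24.1 and 27.6 CPM in DMSO and at 17.6, 16.3 and 14.9 CPM in chaetocin, a log2 difference of -0.70 ± 0.09 with no overlap (adjusted p = 3.56e-06). Levels in siNC were 29.1, 27.2 and 28.3 CPM and in siSUV39H1 31.9, 34.7 and 32.96 CPM. All siSUV39H1 libraries were above all siNC libraries, but the difference of 0.23, with an interval of 0.05 to 0.42, lay just outside the threshold (adjusted p = 0.0507). Over the other processing choices and with single libraries left out its adjusted p ran from 0.0174 to 0.144. The effects of chaetocin and siSUV39H1 differed by -0.94 ± 0.13 (adjusted p = 8.48e-06).

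CDKN1C (p57; chromosome 11, 2883218 to 2885775), an imprinted CIP/KIP gene, was the lowest inhibitor in each group by TPM. It was at 6.81, 5.03 and 5.96 CPM in DMSO and at 2.55, 1.81 and 2.07 CPM in chaetocin, which rest on 35 to 50 counts per library. The groups were apart, with a log2 difference of -1.46 ± 0.17 (adjusted p = 7.95e-07). In siNC it was at 7.46, 6.95 and 6.15 CPM and in siSUV39H1 at 7.83, 6.86 and 7.18 CPM, a difference of 0.09 with an interval of -0.21 to 0.39 (adjusted p = 0.674).

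RB1 (chromosome 13, 48303751 to 48481890), which encodes the substrate of the cyclin D kinases, rose in chaetocin. It was at 23.6, 24.4 and 21.3 CPM in DMSO and at 35.7, 36.3 and 28.6 CPM in chaetocin, a log2 difference of 0.54 ± 0.18 with no overlap (adjusted p = 0.0132). Without chaetocin replicate 2 the difference was 0.47 and was not called (adjusted p = 0.0509). RB1 in siNC was at 34.5, 22.7 and 34.5 CPM and in siSUV39H1 at 23.8, 40.7 and 34.7 CPM, a difference of 0.11 with an interval of -0.27 to 0.49 (adjusted p = 0.667). As for CDK6, siNC replicate 2 and siSUV39H1 replicate 1 were the low libraries.

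The low CDK6 and RB1 values fell in libraries that also differed from their groups by transcript length. On the log2 scale CDK6 deviated from its group mean by -0.47 in siNC replicate 2 and by -0.69 in siSUV39H1 replicate 1, and RB1 by -0.40 and -0.43. The coefficient of variation of CDK6 was 26.0% in siNC and 37.6% in siSUV39H1, against 6.45% in DMSO and 3.05% in chaetocin. CDK6 has a long mRNA, at 11.6 kb as implied by counts and FPKM, longer than 98.6% of the genes with a length, and RB1 is at 4.51 kb. In siNC replicate 2 the median deviation of all genes went from 0.11 in the shortest of 5 length classes to -0.12 in the longest, and in siSUV39H1 replicate 1 from 0.10 to -0.08. siNC replicate 3 went the other way, from -0.11 to 0.12. DMSO replicate 3 also went down with length, from 0.08 to -0.10, but CDK6 and RB1 deviated there by only -0.11 each. In the length class of RB1, class 4 of 5, the medians were -0.06 in siNC replicate 2 and -0.004 in siSUV39H1 replicate 1. The deviations of siNC replicate 2 and siSUV39H1 replicate 1 had Pearson's r = 0.52 across 15051 genes of the same libraries, which are not independent replicates. This was the highest r of all pairs of libraries from different groups. Other pairs also reached sizable values, such as 0.40 for siNC replicate 3 with siSUV39H1 replicate 2. The r was 0.31 for DMSO replicate 3 with siNC replicate 2, and -0.48 for siNC replicate 3 with siSUV39H1 replicate 1.

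With a smooth length trend removed from each library, a choice made after seeing these values, CDK6 was called lower in chaetocin, at -0.60 (adjusted p = 0.00171), and lower in siSUV39H1, at -0.40 (adjusted p = 0.0432). The trend was fitted to deviations from the mean of all 12 libraries, not from the group mean. Differences between the groups that go with length were thus removed as well. The call of CDK6 in siNC against DMSO was lost without siNC replicate 1 (0.60, adjusted p = 0.0839) or 3 (0.55, adjusted p = 0.0994), and without DMSO replicate 1 (adjusted p = 0.0568), 2 (0.0513) or 3 (0.0775). RB1 in siNC against DMSO was 0.40 ± 0.18 and not called (adjusted p = 0.0997), and without siNC replicate 2 it was 0.58 and called (adjusted p = 0.0126). Direction was the same in each of these refits, and the part of transcript length in the CDK6 and RB1 values was not tested further.

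**Figure D3:**
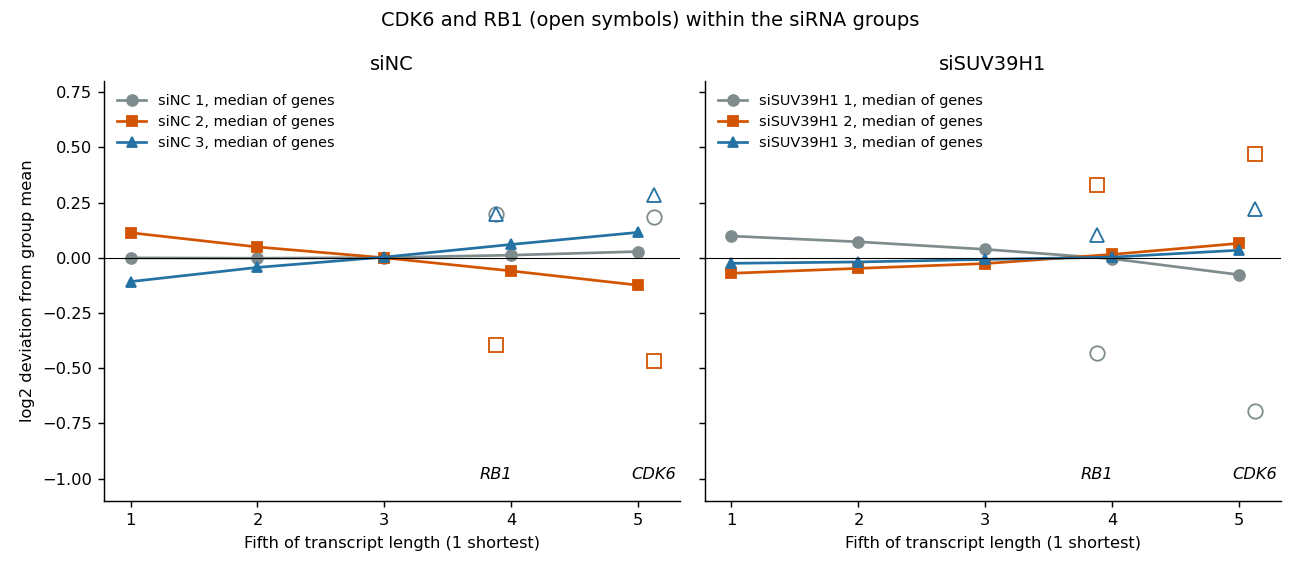
Log2 deviation of each siNC (left) and siSUV39H1 (right) library from its group mean: lines join the median of all genes in each of 5 classes of transcript length, and open symbols are RB1 and CDK6 at their place in the order of lengths. siNC replicate 2 and siSUV39H1 replicate 1 slope downwards with length, and their RB1 and CDK6 values, between -0.40 and -0.69, lie below those lines.

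In chaetocin against DMSO, 7 of the 9 tested genes were called, 2 higher (CCND1, RB1) and 5 lower (CDK4 and the 4 inhibitors), where 79.5% of all tested genes were called, 41.1% higher and 38.4% lower. The called share of the 9 was near that of all genes. Their median log2 difference was -0.70, beside 0.04 for all genes tested. The groups did not overlap for 8 of the 9, where 82.8% of all genes did not. In siSUV39H1 against siNC, 1 of 9 was called, CCND1, where 33.9% of all genes were called, 15.3% higher and 18.6% lower, and the median was 0.09 beside 0.01. Groups did not overlap for 2 of the 9 (CCND1, CDKN1B), where 42.3% of all genes did not.

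The difference of the effects of chaetocin and siSUV39H1 was called for 6 of 9 genes, higher for CCND1 and lower for CDK4 and the 4 inhibitors, where 67.6% of all genes were called, 33.9% higher and 33.7% lower. For CCND3 it was 0.25 with an interval of 0.02 to 0.47 (adjusted p = 0.0552; called with library totals alone, 0.00312, upper-quartile scaling, 0.0173, or a filter of 1 CPM, 0.0351), for CDK6 0.12 (-0.55 to 0.79; adjusted p = 0.753) and for RB1 0.42 (-0.12 to 0.96; adjusted p = 0.154). In siNC against DMSO, which shares its libraries with both comparisons, 4 of 9 were called, CCND1 and CDK6 higher and CDKN2C and CDKN2D lower, where 35.2% of all genes were called, 17% higher and 18.2% lower. Groups did not overlap for the same 4 genes, where 46.5% of all genes did not. An exact permutation test of 3 against 3 cannot go below p = 0.1, which each of the groups that did not overlap reached.

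**Figure D4:**
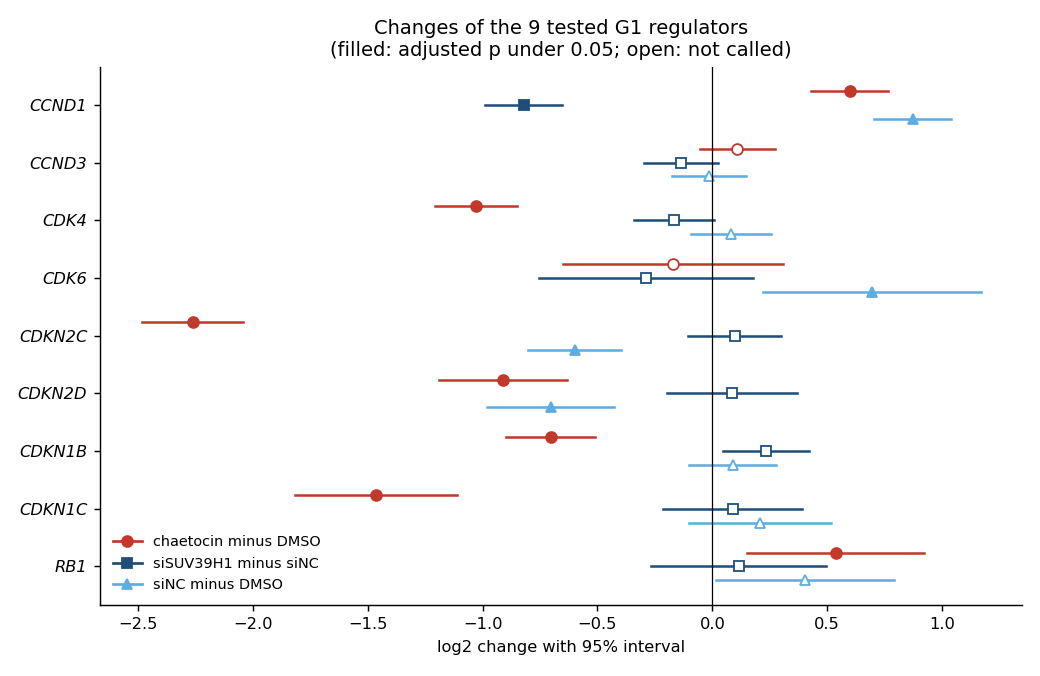
Log2 differences of the 9 tested genes with 95% intervals from edgeR for chaetocin minus DMSO, siSUV39H1 minus siNC, and siNC minus DMSO; filled symbols have an adjusted p under 0.05. CDKN2C in chaetocin, at -2.26, lies farthest from 0, and CCND1 lies at 0.60 in chaetocin and at -0.82 in siSUV39H1.

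The lists of related genes are to be read against all genes tested, of which 41.1% were called higher and 38.4% lower in chaetocin, 15.3% and 18.6% in siSUV39H1, and 17% and 18.2% in siNC against DMSO. Among 8 genes of late G1, 5 were called lower and 2 higher in chaetocin (median -0.67). CDK2, the kinase of cyclins E and A, differed by -2.12 ± 0.10, CDC25A, a phosphatase that activates it, by -1.95 ± 0.14, and CCNA2 by -1.73 ± 0.08. CDKN1A (p21), the CIP/KIP gene outside the chosen 10, was higher by 0.75 ± 0.08. The INK4 genes outside the 10, given here after their values were seen, went apart: CDKN2B was higher by 0.85 ± 0.13 (adjusted p = 1.89e-05) and CDKN2A lower, at -0.79 ± 0.11 (adjusted p = 4.68e-06). In siSUV39H1 3 of the 8 were called lower and none higher (median -0.07), namely CCNA2 at -1.04 ± 0.08, CCNE2 at -1.79 ± 0.39 and CDKN2A at -0.36 ± 0.10. CCNE2 was low in both groups, at means of 1.24 CPM in siNC and 0.353 CPM in siSUV39H1. CDK2 differed by -0.04 in siSUV39H1 (adjusted p = 0.758), and its difference of effects was -2.08 ± 0.13 (adjusted p = 1.52e-09).

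Of 17 genes for pocket proteins, E2F and DP factors and the MuvB complex, 8 were called lower and 4 higher in chaetocin (median -0.21). With library totals as the only scaling these became 7 lower and 6 higher. MYBL2 differed by -2.23 ± 0.09, E2F1 by -1.68 ± 0.10 and E2F2 by -1.70 ± 0.16, whereas E2F7, an E2F repressor, was higher by 0.75 ± 0.11. In siSUV39H1 5 were called lower and 2 higher (median -0.08), with TFDP1, the usual partner of E2F proteins, at -0.74 ± 0.08, E2F5 at -1.28 ± 0.15, E2F7 at -0.66 ± 0.11 and E2F8 at -1.02 ± 0.17. The difference of effects of E2F7 was 1.41 ± 0.15 (adjusted p = 9.06e-07), but siNC itself was above DMSO by 0.94 ± 0.11 (adjusted p = 1.12e-05), with means of 34.8, 58.3, 66.6 and 42.2 CPM in DMSO, chaetocin, siNC and siSUV39H1.

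19 of 20 E2F target genes of the G1/S transition were called lower in chaetocin and none higher (median -0.93), CCNE2 being the one not called. With library totals alone this was 18 of 20. RRM2, a subunit of ribonucleotide reductase, differed by -1.69 ± 0.08, TYMS by -1.24 ± 0.07 and MCM5, of the replicative helicase, by -1.01 ± 0.07. In siSUV39H1 9 were called lower and 1 higher (median -0.12), with UHRF1 at -0.59 ± 0.08 and TK1 at -0.67 ± 0.10. In siNC against DMSO 17 of the 20 were called lower (median -0.47, beside 0 for all genes). CCNE1, CCNE2 and CDC25A are in this list and in that of late G1. 8 of 8 proliferation markers were called lower in chaetocin (median -1.05), FOXM1 at -2.22 ± 0.09, and 5 of 8 in siSUV39H1 (median -0.51), CDK1 at -1.14 ± 0.14 and PLK1 at -0.88 ± 0.09. In siNC against DMSO 6 of the 8 were called lower (median -0.55).

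Of 13 genes for the turnover of p27 and of D-type cyclins, 7 were called lower and 4 higher in chaetocin (median -0.29), or 6 and 6 with library totals alone. SKP2, which marks p27 for degradation, differed by -0.87 ± 0.10, USP2, a deubiquitinase of cyclin D1, by -1.25 ± 0.12, RNF123, of another p27 ligase, by -0.69 ± 0.07, and GSK3B, a kinase of cyclin D1, by 0.67 ± 0.08. In siSUV39H1 5 were lower and 3 higher (median -0.05), with DDB1 at -0.65 ± 0.06. Of 6 genes for activating and chaperoning the kinases, 3 were called higher and 1 lower in chaetocin (median 0.14). CDK7, the catalytic part of the CDK-activating kinase, differed by 0.73 ± 0.07, HSP90AA1 by 1.09 ± 0.13 and CDC37, the kinase cochaperone, by -0.39 ± 0.07. In siSUV39H1 2 of the 6 were called higher, though the median was -0.06, with MNAT1 at 0.33 ± 0.12 and HSP90AA1 at 0.43 ± 0.13. FOXO factors activate CDKN1B, and 2 of 3 were called lower in chaetocin (FOXO1 at -0.61 ± 0.07; median -0.35) and 1 of 3 higher in siSUV39H1 (FOXO3 at 0.38 ± 0.08; median 0.22). Of 14 cyclins and kinases that act in transcription, 8 were called higher and 3 lower in chaetocin (median 0.32), with CCNL1 at 1.25 ± 0.14 and CDK10 at -1.26 ± 0.09, and 5 were called higher and none lower in siSUV39H1 (median 0.16). The 11 of 14 called in chaetocin are a share near the 79.5% of all genes.

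**Figure D5:**
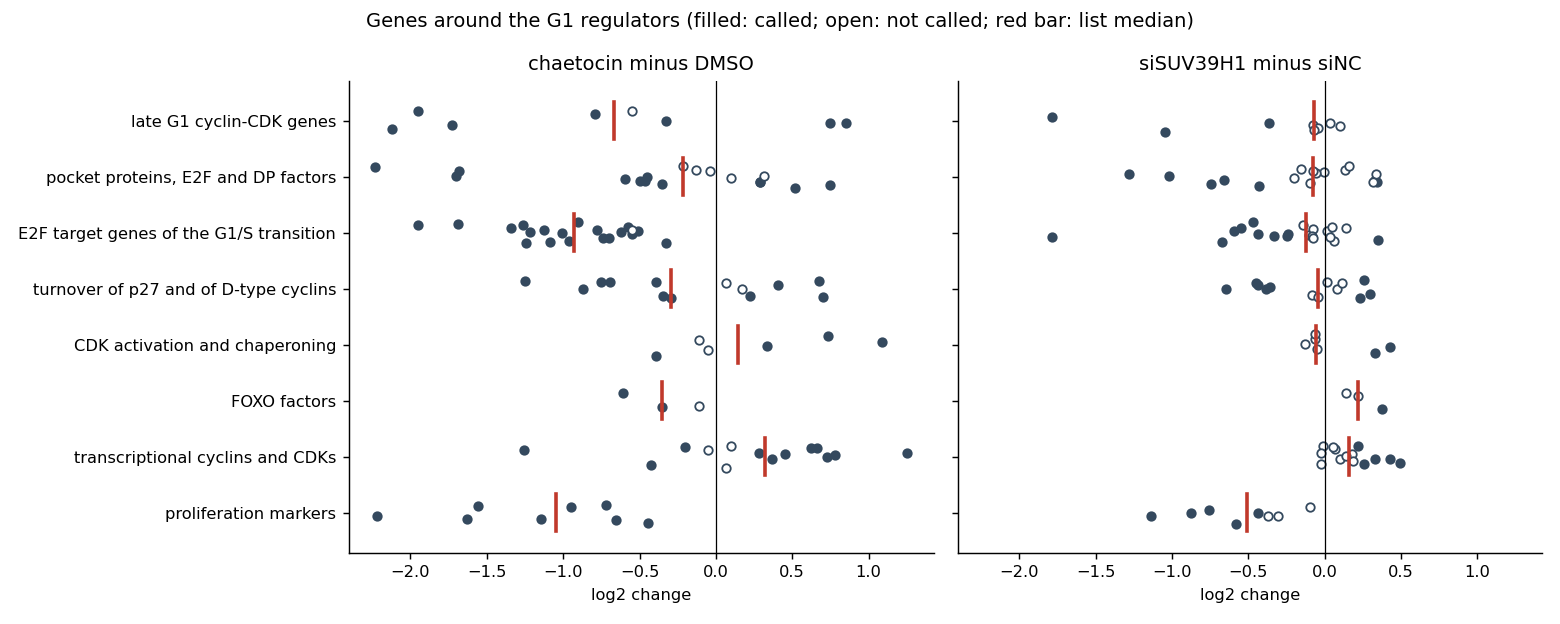
Log2 differences of the genes in 8 lists around the G1 regulators, for chaetocin minus DMSO (left) and siSUV39H1 minus siNC (right); each symbol is 1 gene, filled where the adjusted p is under 0.05, and red bars are list medians. E2F targets lie below 0 in chaetocin, with a median of -0.93, and nearer to 0 in siSUV39H1, with a median of -0.12.

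Genes with the most similar pattern were sought among 11163 other genes, by the distance between centred log2 means of the 4 groups (12 libraries). Nearest to CCND1 were PPIF and E2F7, at distances of 0.16 and 0.18. Nearest to CDK4 were MTERF4 (0.04) and CAMK2D (0.05), and nearest to CDKN2C were MGAT5B (0.09) and SALL2 (0.10). MGAT5B stood at 119, 25.5, 82.3 and 91.0 CPM in DMSO, chaetocin, siNC and siSUV39H1, and so had the same order of groups as CDKN2C. The nearest to the others were COL8A2 and SPG7 for CCND3, SERINC5 and TLCD3A for CDK6, CNTROB and FBF1 for CDKN2D, ZNF789 and AP4S1 for CDKN1B, ADAMTS7 and DENND2B for CDKN1C, and FAM20B and NSMAF for RB1. With 4 group means a close match is easily had, and the distances describe these groups alone.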

How the data were processed

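RNA-seq tables of 12 libraries were used. The authors' tools were RSEM 1.3.1, Bowtie2 and DESeq2 1.4.5, with hg38 as the build, per the submitters' processing notes, which give no roles. The sources used here give neither annotation nor strand setting. The deposited read counts are expected counts per gene, of which 58% are whole within 1e-09 counts, per the file headers and values. The deposited TPM, per the file headers, is scaled for length and served to compare levels between genes. The deposited FPKM, per the file headers, served to recover transcript lengths and as an alternative for shares.

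Expected counts were rounded, filtered by filterByExpr, TMM-scaled and fitted with edgeR 4.0.16 (quasi-likelihood) in R 4.3.3, 1 mean per group (residual degrees of freedom 8, biological coefficient of variation 8.87%). P-values were Benjamini-Hochberg adjusted over 15051 genes. The script was tested on simulated data. Alternatives were other scalings and filters, DESeq2 1.42.0, limma 3.58.1 on log2(TPM + 1) and log2(TPM + 0.1), a fit of 6 libraries, a replicate block and each library left out. 2 more were added after seeing the data. No 2 libraries of a group agreed within counting noise (variance 3.38 to 17.9 times that of counting). Levels have 3 libraries per group, so their number limits precision. Intervals of CCND2 cover counting error only.

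The 10 genes, the lists and the tests were chosen with earlier results of these data known. Named were the 10 genes, SUV39H1, at most 4 genes per list with the smallest p, and 2 genes of similar pattern per gene with a mean of at least 5 CPM. Gene coordinates and upstream sequences are RefSeq's for GRCh38.p14, where 18574 of 18739 identifiers were found. 2 genes of the marker lists are not reported here and were left out of the marker counts and sums.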

Additional observations from a re-analysis of the deposited data

How the results depend on the processing

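No member of the 9 genes reversed a called direction under any alternative run. In siSUV39H1 against siNC 1 gene was called, and 2 were under RLE scaling, library totals only, upper-quartile scaling, a filter of 1 CPM in 3 libraries and DESeq2, where CDKN1B joined CCND1. 3 were called by limma on log2(TPM + 1) and on log2(TPM + 0.1), with CDKN2C, and with the length trend removed, with CDK6. Leaving out 1 library gave 1 to 3 there, 3 without siSUV39H1 replicate 1, and 6 to 7 in chaetocin, 6 to 7 for the difference of effects and 3 to 5 in siNC against DMSO. Over all alternatives the chaetocin count ran from 6 to 9. Library totals alone moved the median of all genes in chaetocin from 0.04 to 0.19, and CCND3 at 0.26 is to be read against that. Upper-quartile scaling moved this median to 0.12, and limma on log2(TPM + 1) to 0.16, so the same holds for CCND3 there. With limma on log2(TPM + 1) the split of all genes called in siSUV39H1 was 3318 higher and 1941 lower, against 2310 and 2799 by edgeR. DESeq2 and limma on TPM did not call CDK6 in siNC against DMSO (adjusted p = 0.0501 and 0.0787). RB1 differed in the difference of effects without siNC replicate 2 (0.59, adjusted p = 0.0284) or siSUV39H1 replicate 2 (0.59, adjusted p = 0.0441), and with siNC replicate 2 and siSUV39H1 replicate 1 both left out (0.38, adjusted p = 0.0337). That of CCND3 was called without siNC replicate 3 (0.28, adjusted p = 0.0438) or siSUV39H1 replicate 1 (0.29, adjusted p = 0.027). The cause of these changes was not tested. Deviations of same-numbered libraries correlated at -0.033 to 0.126 between DMSO and chaetocin and at -0.438 to 0.228 between siNC and siSUV39H1. These values cannot tell whether same-numbered samples were handled together. With a replicate block 7, 1, 6 and 4 genes were called in the 4 comparisons, the same counts as without it. CCND2 lies at the limit of depth: with no filter on low counts it was called too, which made 8 of 10 genes in chaetocin and 7 of 10 for the difference of effects.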
